A study of Mus musculus with 10 samples.

Results

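Mitochondrial ribosomal proteins, the protein building blocks of the ribosome inside mitochondria, were followed by the mRNA of 78 nuclear genes in peritoneal cavity macrophages. The genes were every protein-coding gene of the count table whose symbol is Mrpl or Mrps followed by a number, 78 of 22165 genes in all. By symbol, 49 belonged to the large subunit (Mrpl) and 29 to the small subunit (Mrps). The filter on low counts kept 76 of them, 48 large and 28 small subunit genes, among 11614 genes tested.

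The cells were lavaged from the peritoneal cavity of C57BL/6 mice and sorted by staining for the macrophage proteins CD64 and ICAM-2 and for CD115, the CSF1 receptor. The treatment protocol gives mice of both genotypes as homozygous for a floxed allele. Those without Cre, labelled WT, are called wild type here, and those that also carried LysM-Cre, a recombinase expressed from Lyz2 in the myeloid lineage, are the knockout, so each comparison of genotypes also compares mice with and without Cre. Ages were not given in the labels used here. Mice had received an intraperitoneal injection of saline (basal) or of IL-4 bound to an anti-IL-4 antibody, a complex that lives longer than the free cytokine, 36 hours before collection. Polyadenylated RNA was sequenced in 10 libraries: 2 wild-type basal, 2 knockout basal, 3 wild-type IL-4 and 3 knockout IL-4. The labels did not say whether replicates came from separate animals, so each p-value measures the spread between these libraries, which may be technical.

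The mitochondrial ribosome translates the few mRNAs made from mitochondrial DNA, which encode core subunits of the respiratory chain and of ATP synthase. Its RNA is made in the mitochondrion, whereas all of its proteins are encoded in the nucleus, made in the cytosol and imported. Part of the proteins descend from those of bacterial ribosomes and others were added in mitochondria. The small subunit binds the mRNA and reads the codons, and the large subunit joins the amino acids and releases the chain at the inner membrane. In macrophages, alternative activation by IL-4 is known for its reliance on oxidative phosphorylation. Among the 78 genes, 29 large and 16 small subunit genes encoded proteins with a bacterial counterpart. The other 20 large and 13 small subunit genes encoded proteins specific to mitochondria.

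Libraries held 8762403 to 15024073 counts, of which the members together took 0.233% to 0.362%. Levels are given as CPM, counts relative to the TMM-scaled size of the library. The macrophage markers Adgre1 (559 to 885 CPM) and Csf1r (248 to 368 CPM) were present in all 10 libraries. The genes of CD64 (Fcgr1) and ICAM-2 (Icam2), by which the cells were sorted, moved with the groups. Fcgr1 had means of 35.75 CPM in wild-type basal, 24.7 in knockout basal, 10.4 in wild-type IL-4 and 10.1 in knockout IL-4 libraries. The means of Icam2 were 994, 619, 411 and 387 CPM in the same order. Markers of other cells moved with the groups. All 12 B cell markers tested rose in basal knockout against basal wild type, and their summed level was 1716 and 1961 CPM in the knockout libraries against 261 and 436 CPM in the wild-type libraries. None of these 12 markers was at 0 in any group, and after IL-4 their sum lay between 606 and 704 CPM in wild type and between 669 and 754 CPM in knockout. Lyz2, the locus that carries Cre, was at 21900 and 23600 CPM in wild-type basal and at 2664 and 9675 CPM in knockout basal libraries. Proliferation markers summed to 39.1 to 115 CPM in the 4 basal libraries, 203 to 246 CPM in wild type after IL-4 and 371 to 858 CPM in knockout after IL-4.

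Per kilobase of merged exons, mean levels over the 10 libraries spanned a wide range. Mrpl18, whose bacterial counterpart binds 5S rRNA, stood first with 129 CPM per kb. Mrps15 and Mrps21, both core proteins of the small subunit, followed with 104 and 93.1 CPM per kb. The lowest tested members were Mrps2 (2.003 CPM per kb), Mrps35 (2.12 CPM per kb) and Mrps10 (2.96 CPM per kb), all of the small subunit. Both ends of the range thus held small subunit genes. The order depended on the gene model. Over the longest protein-coding transcript in place of merged exons, Mrpl33 moved from rank 20 (18.5 CPM per kb) to rank 1 (284 CPM per kb), and Mrpl52 from 4 to 3. Mrps15, Mrpl18 and Mrps21 ranked 2, 4 and 5, and Mrps2 and Mrps35 ranked 76 and 74, whereas Mrps10 moved from 74 to 27.

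**Figure D1:**
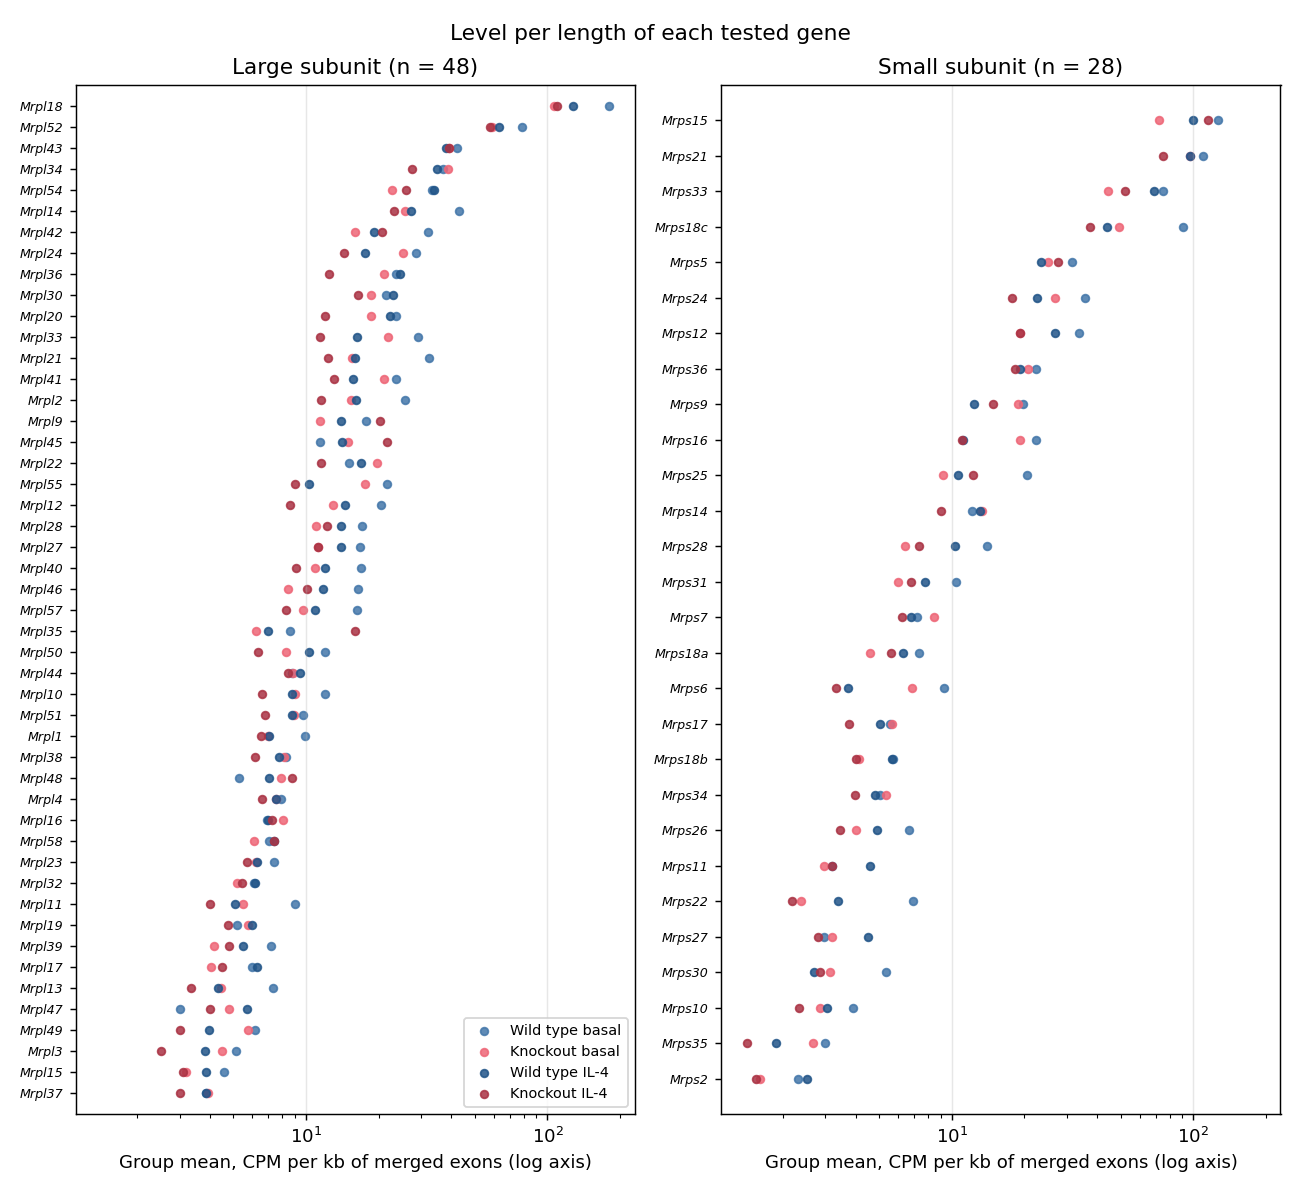
Group mean level of each tested gene in CPM per kb of merged exons (log axis), with large subunit genes (n = 48) on the left and small subunit genes (n = 28) on the right, ordered by mean level. Each point is a group mean of 2 (basal) or 3 (IL-4) libraries. Mrpl18, Mrps15 and Mrps21 head the panels, and for many genes the wild-type basal point lies to the right of the other 3.

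The top members were high in every group. Mrpl18 measured 162 and 342 CPM in wild-type basal libraries, 166 and 130.2 CPM in knockout basal, 166, 181 and 189.8 CPM in wild type after IL-4, and 135, 167 and 159.8 CPM in knockout after IL-4. Apart from the second wild-type basal library, these values lay within 130.2 and 189.8 CPM. Mrps21 measured 83.0 and 79.1 CPM in wild-type basal, 69.4 and 73.5 CPM in knockout basal, 70.1, 66.0 and 79.7 CPM in wild type after IL-4, and 61.4, 63.7 and 41.7 CPM in knockout after IL-4. In both treatments every knockout library of Mrps21 lay below every wild-type library, by small margins.

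Mrps23, a mitochondria-specific small subunit gene on chromosome 11, had 0 counts in all 10 libraries. Mrpl53, a mitochondria-specific large subunit gene on chromosome 6, had 5 counts, all in wild-type IL-4 replicate 2. The exons of Mrpl53 overlap those of Ccdc142os and Gm42688. Of its exon bases, 88.0% are shared on the same strand, where counting can assign a read to neither gene, and 1.9% on the other strand. These 2 members were not tested. A count of 0 allows up to 3 counts, or 0.2 to 0.342 CPM by library total, and this limit covers counting error only. For Mrps23 no exon base is shared with another annotated gene, and the part of the counting in its value was not tested.

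The members lay on 17 chromosomes, with 11 on chromosome 11 and 8 on chromosome 17. A shared feature was their place beside other genes. Of the 78 members, 33 (42.3%) had the start of a gene on the opposite strand within 1000 bp of their own start, against 16.8% of 11522 protein-coding genes tested. The arrangement held for 24 of 49 large subunit genes (49.0%) and 9 of 29 small subunit genes (31.0%). A pair joins the subunits, since Mrpl46 and Mrps11 lie on opposite strands of chromosome 7 with starts 412 bp apart. Their 5′ ends overlap, with 12.2% of the exon bases of Mrpl46 and 8.0% of those of Mrps11 shared. Mrps18c stands 29 bp from Helq, a DNA helicase gene, and Mrpl36 stands 29 bp from Ndufs6, which encodes a subunit of respiratory complex I.

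Promoters were read from RefSeq (GRCm38.p6) as 250 bases before to 50 after the start site, and 69 of the 78 members were matched. Both strands were searched for 5 motifs. NRF1 and the ETS factor GABP are known activators of nuclear genes for mitochondrial proteins, and YY1 is a zinc finger factor with the same reputation. The NRF1 motif (GCGCA, any base, GCGC) was found in 18.8% of member promoters, 12% of promoters of tested genes and 5.19% of all promoters. The ETS and GABP core CCGGAAG was found in 37.7% of member promoters, 21% of those of tested genes and 9.93% of all. The YY1 core AAGATGGC was found in 17.4%, 5.6% and 3.19% of these. Any of these 3 was found in 43 of 69 members, and 8 members held at least 2 of them. CCAAT (39.1% of member promoters, 43.4% of those tested) and TATAAA (7.25% and 8.55%) differed less. The ETS and YY1 cores were found in 42.3% and 23.1% of 26 small subunit promoters against 34.9% and 14.0% of 43 large subunit promoters, and the NRF1 motif in 11.5% against 23.3%. Any overlap of the motifs with one another was counted for each. A match is a description of the letters, not of binding.

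The 100 bases before the RefSeq start site are shown for 6 members named in the comparisons below, with motif matches in capitals. Of these, Mrps18c and Mrpl33 were called after IL-4, and the others were called in no comparison of the main fit. Mrps16 and Mrps30, which were called after IL-4 as well, are not shown. Mrps22 and Mrpl22 show the ETS and GABP core, Mrpl12 and Mrpl45 the NRF1 motif, and the windows of Mrps18c and Mrpl33, which carried the clearest IL-4 differences, hold none of the 3 motifs. All are written 5′ to 3′ on the strand of the gene.
Mrps18c, chr5:100798659-100798758, plus strand: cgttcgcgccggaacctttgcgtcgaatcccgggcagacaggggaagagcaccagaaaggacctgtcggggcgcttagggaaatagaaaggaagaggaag
Mrpl33, chr5:31613851-31613950, plus strand: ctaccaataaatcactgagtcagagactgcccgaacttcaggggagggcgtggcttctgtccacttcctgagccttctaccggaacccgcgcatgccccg
Mrps22, chr9:98601680-98601779, minus strand: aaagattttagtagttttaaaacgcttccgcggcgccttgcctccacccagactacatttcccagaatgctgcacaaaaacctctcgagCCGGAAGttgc
Mrpl12, chr11:120484537-120484636, plus strand: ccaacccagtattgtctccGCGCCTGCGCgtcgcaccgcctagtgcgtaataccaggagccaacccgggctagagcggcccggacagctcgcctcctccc
Mrpl45, chr11:97315616-97315715, plus strand: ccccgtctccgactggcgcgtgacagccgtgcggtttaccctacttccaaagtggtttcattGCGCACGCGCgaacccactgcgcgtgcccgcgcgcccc
Mrpl22, chr11:58171564-58171663, plus strand: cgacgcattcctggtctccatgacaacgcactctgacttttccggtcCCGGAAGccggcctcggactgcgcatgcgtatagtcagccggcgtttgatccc
The medians of members with and without a motif are given here as descriptions, and their differences were not tested. For basal knockout against wild type, the median log2 difference was -0.56 over 13 tested members with the NRF1 motif and -0.41 over 54 without it. With and without the ETS and GABP core it was -0.44 over 24 and -0.41 over 43 members, and with and without the YY1 core it was -0.20 over 12 and -0.44 over 55. For the interaction, which sets the IL-4 change in knockout against that in wild type, the median was -0.12 with and 0.20 without the YY1 core. It was 0.22 with and 0.10 without the NRF1 motif, and 0.21 with and 0.08 without the ETS and GABP core.

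Summed over the members, the mRNA was highest in wild-type basal libraries, and the lowest group mean was that of knockout IL-4 (2508 CPM). Wild-type basal libraries held 3280 and 3962 CPM, knockout basal 2734 and 2601 CPM, wild-type IL-4 2883, 2663 and 2729 CPM, and knockout IL-4 2401, 2350 and 2773 CPM. Both wild-type basal libraries stood above the other 8. The third knockout IL-4 library lay within the wild-type IL-4 range and above both knockout basal libraries. A sum is led by a few abundant genes, so the mean over genes was also taken, as log2(CPM + 1) relative to each gene's mean over all libraries. On that scale wild-type basal libraries stood at 0.27 and 0.40, knockout basal at 0.0039 and -0.055, wild-type IL-4 at 0.14, -0.11 and 0.041, and knockout IL-4 at -0.20, -0.24 and -0.25. Every knockout library lay below every wild-type library of its treatment on this scale, and the 3 knockout IL-4 libraries were the lowest of all. Of the 76 tested members, 27 had their highest value of the 10 libraries in the second and 15 in the first wild-type basal library. Between these stood the first wild-type IL-4 library, with the highest value of 17 members. The lowest value of 27 members fell in the third, of 13 in the second and of 11 in the first knockout IL-4 library. In bulk RNA, fewer cells of a type and less RNA per cell cannot be told apart.

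**Figure D2:**
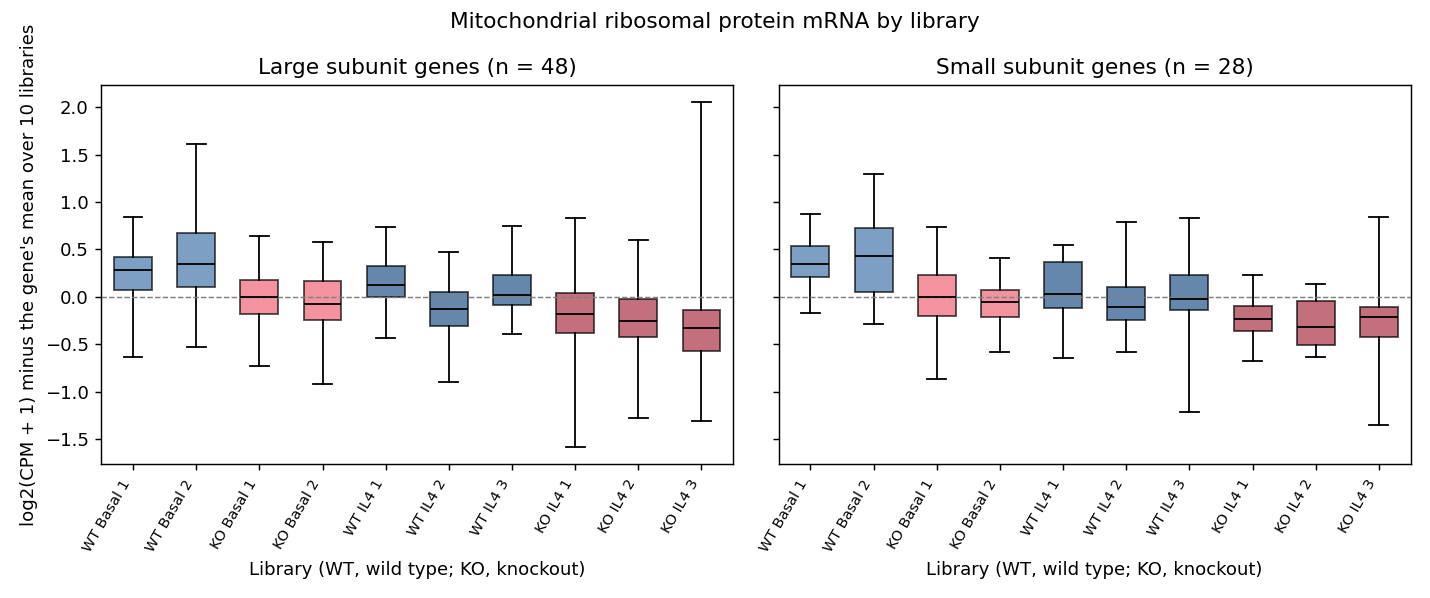
Level of the large (n = 48, left) and small (n = 28, right) subunit genes in each library, as log2(CPM + 1) minus the gene's mean over the 10 libraries. Boxes give the median and middle 50% of genes and whiskers the lowest and highest gene. In both panels the boxes of the 2 wild-type basal libraries lie highest and those of the 3 knockout IL-4 libraries lowest.

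With TMM scaling both subunits were highest in the wild-type basal libraries. For the large subunit this order rested on the scaling. With library totals its sum was 1850 CPM in the first wild-type basal and 1852 CPM in the first wild-type IL-4 library. The large subunit genes summed to 1857 and 2340 CPM in wild-type basal, 1619 and 1561 CPM in knockout basal, 1483 to 1814 CPM in wild-type IL-4 and 1408 to 1530 CPM in knockout IL-4 libraries. The small subunit genes summed to 1423 and 1622 CPM, 1115 and 1040 CPM, 1069 to 1180 CPM and 942 to 1243 CPM in the same groups. The ratio of the small to the large sum was 0.73 ± 0.052 (SD, n = 2) in wild-type basal, 0.68 ± 0.016 (n = 2) in knockout basal, 0.68 ± 0.10 (n = 3) in wild-type IL-4 and 0.72 ± 0.078 (n = 3) in knockout IL-4. The ratio is not per length and serves to compare libraries alone. Its groups overlapped apart from the basal pair, where both knockout libraries (0.689 and 0.666) lay below both wild-type libraries (0.767 and 0.693). The highest ratio, 0.81 in the third knockout IL-4 library, came with Mrps15 at 302 CPM there against 152 and 129 CPM in the rest of the group. In solved structures Mrps30 and Mrps18a sit in the large subunit, and Mrps36 belongs to the 2-oxoglutarate dehydrogenase complex. With genes placed that way the ratios were 0.67, 0.62, 0.63 and 0.66 in the same order of groups.

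In the comparison of genotypes under basal conditions, members were lower in knockout as a group, with no single member past the threshold. The median log2 difference over 76 members was -0.41, against -0.017 over all genes tested. It was -0.38 for the large and -0.45 for the small subunit. Of the members, 62 were fitted below 0 (81.6%), against 51.1% of all genes. By edgeR's quasi-likelihood test with Benjamini-Hochberg adjustment over all genes (threshold 0.05, used throughout), 0 members passed, where 4.14% of all genes did. At an unadjusted p under 0.05, 20 members were lower and 1 higher, against 8.92% and 8.79% of all genes. DESeq2 called 3 lower, Mrps22, Mrps25 and Mrps18c. For calls, shares of all genes are given for edgeR alone, here and below, so DESeq2 counts cannot be set against a share. Both knockout libraries lay below both wild-type libraries for 40 members (52.6%, all genes 24.5%) and above them for 5 (6.58%, all genes 23.7%). In these libraries all 12 B cell markers were higher in knockout, as given above. Mast cell markers were higher as well, 4 of 7 past the threshold, with sums of 157 and 259 CPM in knockout and 26.8 and 29.0 CPM in wild type. The 4 tested erythroid markers were fitted above 0 with adjusted p of 0.128 to 0.39. Erythroid markers summed to 29.85 and 13.95 CPM in knockout against 6.52 and 0 CPM in wild type, where Alas2 and Hbb-bt had no count. Past the threshold were also 1 of 7 small peritoneal macrophage, monocyte and dendritic markers, which was higher, and 1 of 8 proliferation markers, which was lower. Of 6 macrophage markers 1 passed and was lower, Lyz2, the locus that carries Cre. The other 5 were not called, with fitted values of -0.53 (Fcgr1) to 0.45 (Mertk). The part of any of these in the member levels was not tested.

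The members with the smallest p in basal cells belonged to the small subunit. Mrps22, a mitochondria-specific protein of the small subunit, measured 23.5 and 31.9 CPM in wild type and 7.57 and 11.5 CPM in knockout. Its log2 difference was -1.54 ± 0.44 (SE), a 2.91-fold lower level, with an adjusted p of 0.0629. After IL-4 the level was 11.3, 11.04 and 18.3 CPM in wild type and 9.95, 11.8 and 4.25 CPM in knockout, where the groups overlapped. High values of Mrps22 were thus seen in wild-type basal libraries alone.

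Mrps25, also specific to mitochondria, measured 146 and 123 CPM in wild-type basal and 50.1 and 71.5 CPM in knockout basal libraries. The difference was -1.15 ± 0.34 with an adjusted p of 0.0705. Of its exon bases, 69.8% lie opposite exons of Nr2c2 on the other strand, and the strand setting of the counting was not given in the sources used here, so reads of both genes may be joined in this value. Mrps18c, a member of the bacterial S18 family, measured 82.8 and 112 CPM in wild type and 54.6 and 51.9 CPM in knockout, a difference of -0.87 ± 0.26 with an adjusted p of 0.0705. Of its exon bases, 23.2% are shared on the same strand with Gm43511.

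Among large subunit genes, Mrpl42, specific to mitochondria, had the smallest p in basal cells. It measured 90.7 and 146 CPM in wild type and 54.3 and 63.4 CPM in knockout, a difference of -1.01 ± 0.33 with an adjusted p of 0.105. The next members by p were Mrpl57, Mrps28, Mrpl13, Mrpl18, Mrps30, Mrpl14, Mrps12 and Mrpl39. Their differences lay between -1.12 (Mrps28) and -0.71 (Mrpl13), with adjusted p of 0.166 to 0.196. Except for Mrpl18, whose libraries overlapped (162 and 342 against 166 and 130.2 CPM), both knockout libraries lay below both wild-type libraries for each of these 8.

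After IL-4, members were again lower in knockout as a group and 0 passed the threshold, where 0.827% of all genes did. The median difference was -0.33 over the members (large subunit -0.32, small subunit -0.36) and 0.018 over all genes. Fitted values lay below 0 for 64 members (84.2%) against 48.3% of all genes. At an unadjusted p under 0.05 edgeR gave 10 members lower and 1 higher, against 6.94% and 7.47% of all genes, and DESeq2 called 2 lower, Mrpl20 and Mrpl36. All 3 knockout libraries lay below all 3 wild-type libraries for 21 members (27.6%, all genes 10.7%) and above them for 2 (2.63%, all genes 9.57%). Summed B cell markers of these 6 libraries overlapped between the genotypes, as given above. Of the neutrophil markers, 2 of 4 were lower in knockout (S100a8 and S100a9), and their sum was 18.5 to 26.9 CPM in knockout and 73.0 to 80.7 CPM in wild type. All 8 proliferation markers were fitted above 0 and 1 passed (Mki67), with sums that did not overlap, as given above. Also past the threshold were 1 of 7 small peritoneal macrophage, monocyte and dendritic markers, which was lower, and 1 higher and 1 lower of 11 large peritoneal macrophage markers. The part of any of these in the member levels was not tested.

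Mrpl20 and Mrpl36, both large subunit proteins with a bacterial counterpart, had the smallest p after IL-4. Mrpl20, which binds the large rRNA, measured 44.7, 28.9 and 37.7 CPM in wild type and 20.9, 21.4 and 17.4 CPM in knockout. The difference was -0.90 ± 0.25, 1.86-fold lower, with an adjusted p of 0.101. Mrpl36, one of the smallest proteins of the subunit, measured 33.3, 29.9 and 21.9 CPM in wild type and 18.5, 13.7 and 11.3 CPM in knockout, a difference of -0.97 ± 0.27 with an adjusted p of 0.101. For both genes the groups did not overlap.

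Mrpl12, the stalk protein that contacts translation factors, measured 23.4, 19.4 and 23.7 CPM in wild type and 14.0, 13.7 and 11.7 CPM in knockout after IL-4. The difference was -0.75 ± 0.24 with an adjusted p of 0.158. Mrpl45, which lies at the exit of the peptide tunnel and holds the ribosome to the inner membrane, went the other way. It measured 38.9, 30.1 and 40.9 CPM in wild type and 56.5, 57.4 and 54.2 CPM in knockout, a difference of 0.61 ± 0.22 with an adjusted p of 0.209. Of the other members named by p, Mrps14, Mrpl33, Mrpl50, Mrpl22, Mrpl17, Mrps2 and Mrpl47 had differences of -0.70 to -0.48 with adjusted p of 0.254 to 0.333 and no overlap of the groups. Mrpl35 is taken up with the spread below.

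The basal and IL-4 comparisons of genotypes share no library, so their counts can be set side by side. Fitted values were below 0 in both for 53 of 76 members (69.7%, all genes 26.5%) and above 0 in both for 3 (3.95%, all genes 27.0%). Knockout libraries lay below wild-type libraries in both treatments for 14 members (18.4%, all genes 3.45%). These were Mrpl2, Mrpl12, Mrpl17, Mrpl33, Mrpl50 and Mrpl57 of the large subunit and Mrps2, Mrps10, Mrps11, Mrps12, Mrps21, Mrps24, Mrps26 and Mrps28 of the small subunit. Mrpl45 was the member whose knockout libraries lay above in both (1.32%, all genes 2.74%). Its basal levels were 31.6 and 27.6 CPM in wild type and 44.99 and 32.8 CPM in knockout.

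**Figure D3:**
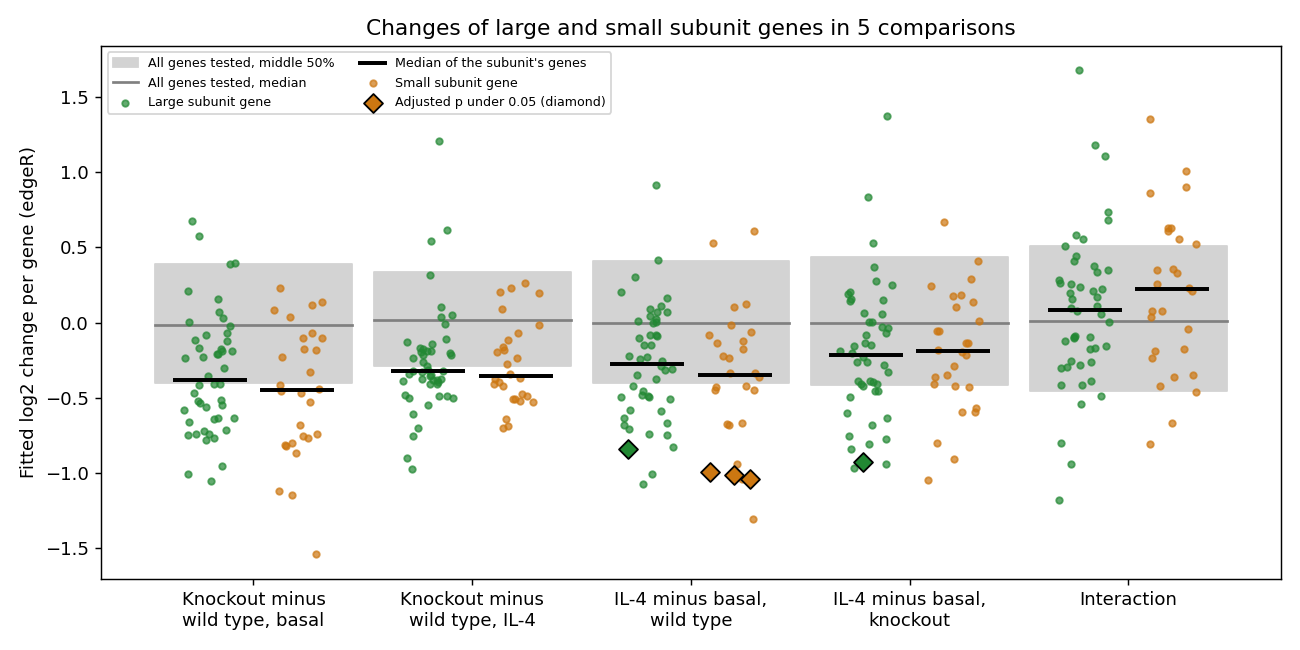
Fitted log2 change of each tested large (green) and small (orange) subunit gene in 5 comparisons. Grey bands give the middle 50% and grey lines the median of all 11614 genes tested, black bars the median of the subunit, and diamonds the genes with an adjusted p under 0.05. The subunit medians lie below the grey line in the first 4 comparisons, and the 5 diamonds fall in the IL-4 comparisons.

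After IL-4, 4 members fell in wild-type cells: Mrps18c (chr5:100798627-100804471), Mrpl33 (chr5:31596935-31664384), Mrps16 (chr14:20389304-20393634) and Mrps30 (chr13:118378381-118387252), with coordinates of GENCODE M21 on GRCm38, the assembly also known as mm10. These were 4 of 76, against 2.8% of all genes called lower, and 0 members were called higher, against 3.26% of all genes. At an unadjusted p under 0.05, 19 members were lower and 1 higher, against 10.6% and 10.7% of all genes, and DESeq2 called 7 lower and 1 higher. The median difference was -0.31 over the members (large subunit -0.27, small subunit -0.35) and 0.000 over all genes. Fitted values were below 0 for 59 members (77.6%, all genes 49.9%). All 3 IL-4 libraries lay below both basal libraries for 28 members (36.8%, all genes 19.5%) and above them for 2 (2.63%, all genes 20.8%). Of the markers, 2 of 8 for proliferation, 3 of 12 for B cells, 2 of 4 for neutrophils and 2 of 7 for small peritoneal macrophages, monocytes and dendritic cells rose in this comparison, and 3 of 7 for mast cells fell. Neutrophil markers summed to 11.99 and 32.4 CPM in basal and 73.0 to 80.7 CPM in IL-4 libraries. The small peritoneal macrophage, monocyte and dendritic markers summed to 106 and 193 CPM in basal and 943 to 969.7 CPM in IL-4 libraries. Mast cell markers summed to 26.8 and 29.0 CPM in basal and 2.68 to 4.19 CPM in IL-4 libraries. Of 6 macrophage markers 1 rose (Mertk) and 2 fell (Fcgr1 and Lyz2), and of 11 large peritoneal macrophage markers 1 fell. The part of any of these in the member levels was not tested.

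Mrps18c measured 82.8 and 112 CPM in wild-type basal and 48.1, 45.9 and 47.6 CPM in wild-type IL-4 libraries. It fell by 1.04 ± 0.23 on the log2 scale, 2.06-fold, with an adjusted p of 0.0139. The 3 IL-4 libraries lay close together and well below both basal libraries. In knockout the basal level was already 54.6 and 51.9 CPM, and IL-4 libraries held 46.0, 34.8 and 39.4 CPM, a difference of -0.41 with an adjusted p of 0.305. The call was lost without wild-type basal replicate 2 (adjusted p = 0.15), wild-type IL-4 replicate 2 (0.0537) or wild-type IL-4 replicate 3 (0.0519).

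Mrpl33, a short large subunit protein with a bacterial counterpart, fell after IL-4 in both genotypes. It measured 195 and 232 CPM in wild-type basal and 139, 108 and 110.5 CPM in wild-type IL-4 libraries. Its level was 143 and 177 CPM in knockout basal and 80.03, 93.0 and 79.2 CPM in knockout IL-4 libraries. In neither genotype did the groups overlap. The fall was 0.84 ± 0.22 (1.79-fold, adjusted p = 0.0322) in wild type and 0.93 ± 0.22 (1.90-fold, adjusted p = 0.0164) in knockout. The difference between these changes was -0.086, with an adjusted p of 0.937. The wild-type call was lost without either wild-type basal library, wild-type IL-4 replicate 2 or wild-type IL-4 replicate 3 (adjusted p of 0.0687 to 0.202), and the knockout call without knockout basal replicate 2 (adjusted p = 0.191). The wild-type call was also lost with library totals (adjusted p = 0.0525) and with a replicate block (0.0952), and the knockout call with a replicate block (0.0619) and in a fit of only the groups compared (0.0533).

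Mrps16, a core small subunit protein, measured 59.5 and 69.3 CPM in wild-type basal and 37.5, 26.7 and 31.7 CPM in wild-type IL-4 libraries, and fell by 1.01 ± 0.27 (adjusted p = 0.0351). Mrps30, which sits in the large subunit in solved structures, measured 31.5 and 39.8 CPM in basal and 21.5, 16.02 and 16.3 CPM in IL-4 libraries, and fell by 0.99 ± 0.27 (adjusted p = 0.0416). Of the exon bases of Mrps30, 9.3% lie opposite exons of B430218F22Rik. In knockout the Mrps16 difference was -0.80 (adjusted p = 0.0838), with 68.2 and 41.9 CPM in basal and 28.4, 37.9 and 28.5 CPM in IL-4 libraries. For Mrps30 the knockout libraries overlapped, at 20.8 and 21.1 CPM basal and 20.9, 14.1 and 22.3 CPM after IL-4. Among the fits that each left out 1 of the 10 libraries, the Mrps16 call was lost in 5 and the Mrps30 call in 7, with adjusted p over all alternatives of up to 0.185 and 0.244. Both calls were also lost with library totals (0.051 for Mrps16 and 0.0563 for Mrps30) and with a replicate block (0.0886 and 0.0742). Without wild-type basal replicate 2 or without wild-type IL-4 replicate 3, no member was called in wild type.

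**Figure D4:**
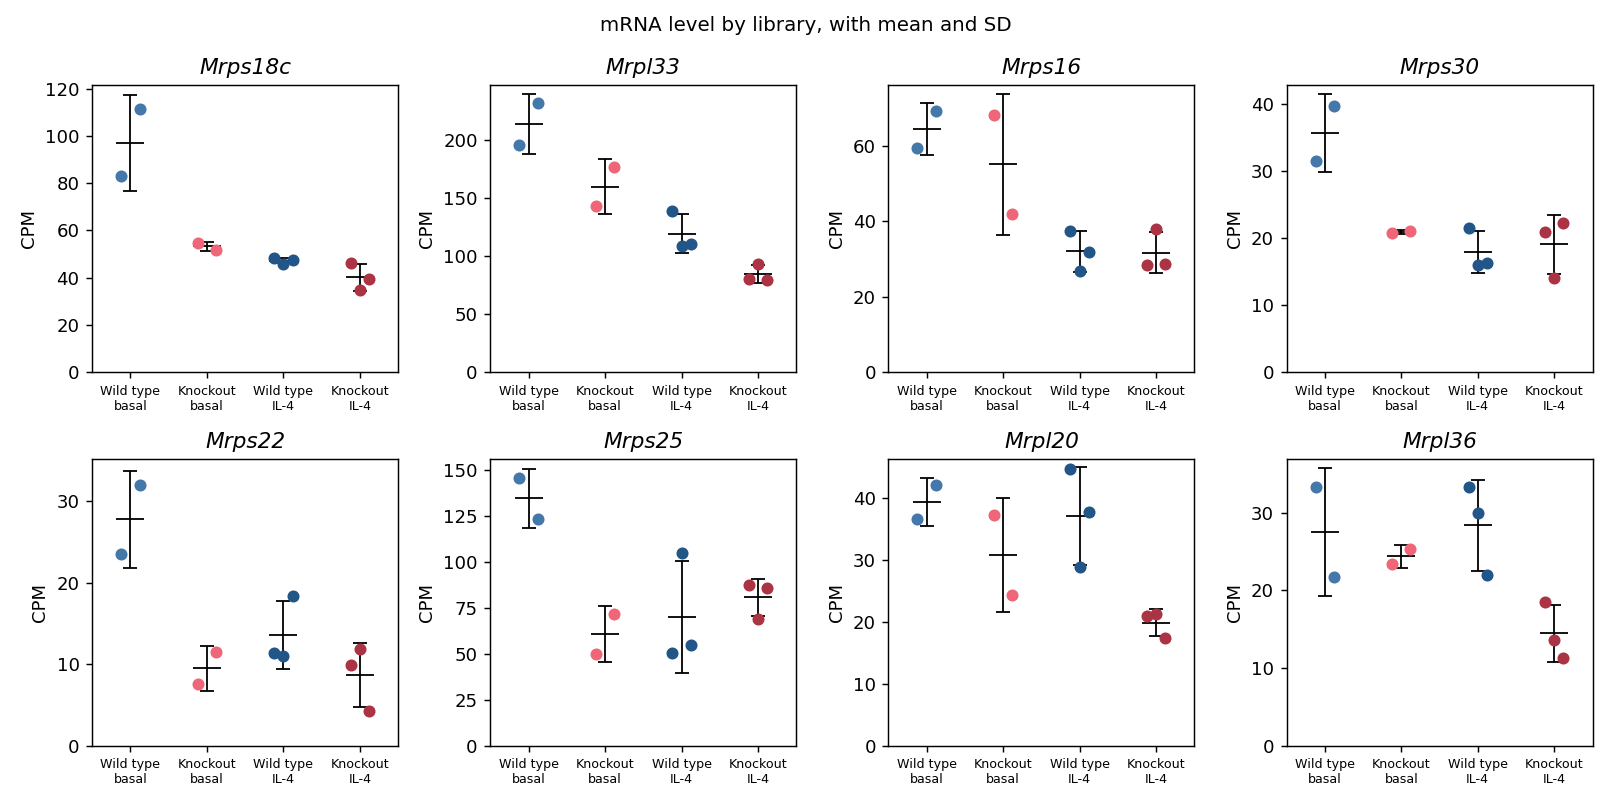
Level in CPM of 8 members by library, with group mean and SD (basal n = 2, IL-4 n = 3 per genotype; axes start at 0). The upper row holds the 4 members called after IL-4, with wild-type basal points above the wild-type IL-4 points. The lower row holds the leading members of the genotype comparisons, Mrps22 and Mrps25 in basal cells and Mrpl20 and Mrpl36 after IL-4.

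Of the members short of the threshold in wild type, 1 of the 2 nearest was higher after IL-4. Mrpl47, the counterpart of bacterial L29 near the tunnel exit, measured 12.1 and 14.7 CPM in basal and 27.4, 27.2 and 20.9 CPM in IL-4 libraries, a difference of 0.91 ± 0.27 with an adjusted p of 0.0546. Its exon bases lie opposite exons of Actl6a and Ndufb5 for 24.2%. Mrpl55, a mitochondria-specific large subunit protein, measured 23.4 and 21.1 CPM in basal and 14.3, 6.52 and 11.02 CPM in IL-4 libraries, a difference of -1.07 ± 0.31 with an adjusted p of 0.0533. Mrps25, Mrps6, Mrpl13, Mrpl11, Mrpl24 and Mrps24 followed with differences of -1.30 (Mrps6) to -0.67 (Mrps24) and adjusted p of 0.0760 to 0.120. Exon bases shared on the same strand with other genes made up 19.9% of Mrps6 and 15.4% of Mrps24. Wild-type basal libraries enter both this comparison and that of genotypes in basal cells, so the high basal values of Mrps18c, Mrps22 and Mrps25 count in both.

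In knockout cells 1 member fell after IL-4, Mrpl33 (1 of 76, against 3.51% of all genes called lower), and 0 were called higher, against 4.09% of all genes. At an unadjusted p under 0.05, 16 members were lower and 2 higher, against 10.9% and 11.9% of all genes, and DESeq2 called 2 lower, Mrpl33 and Mrpl24, and 0 higher. The median difference was -0.20 over the members (large subunit -0.21, small subunit -0.19) and -0.002 over all genes. Fitted values were below 0 for 52 members (68.4%, all genes 50.1%). All 3 IL-4 libraries lay below both basal libraries for 25 members (32.9%, all genes 21.2%) and above them for 5 (6.58%, all genes 18.4%). All 8 proliferation markers rose in this comparison, while all 12 B cell markers had fitted values below 0 and 11 of them fell. Of 7 mast cell markers 6 fell, with sums of 157 and 259 CPM in basal and 1.52 to 2.92 CPM in IL-4 libraries, where Fcer1a, Mcpt4 and Ms4a2 had no count. Of 4 erythroid markers 2 fell, and their sum went from 29.85 and 13.95 CPM to between 1.44 and 3.76 CPM. Of 7 small peritoneal macrophage, monocyte and dendritic markers 2 rose, and 1 of 6 macrophage (Fcgr1) and 1 of 11 large peritoneal macrophage markers fell. The part of any of these in the member levels was not tested.

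Mrpl24, a large subunit protein with a bacterial counterpart, measured 64.2 and 49.1 CPM in knockout basal and 30.06, 37.01 and 30.2 CPM in knockout IL-4 libraries. The difference was -0.80 ± 0.25 with an adjusted p of 0.0591. Exons of Rrnad1 lie opposite 26.3% of the exon bases of Mrpl24. Mrpl9, another large subunit protein with a bacterial counterpart, was higher, with a difference of 0.83 ± 0.32 and an adjusted p of 0.133. It measured 35.4 and 26.4 CPM in basal and 74.8, 43.1 and 47.1 CPM in IL-4 libraries. Mrpl55, Mrps16, Mrpl22, Mrps35, Mrpl3, Mrpl36, Mrpl41, Mrps14 and Mrps24 had differences of -0.96 (Mrpl55) to -0.56 (Mrps14), with adjusted p of 0.0745 to 0.160, and no overlap of the groups.

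The IL-4 comparisons in wild type and knockout share no library either. Fitted values were below 0 in both for 42 members (55.3%, all genes 29.7%) and above 0 in both for 7 (9.21%, all genes 29.6%). IL-4 libraries lay below basal libraries in both genotypes for 14 members (18.4%, all genes 6.66%), Mrpl2, Mrpl3, Mrpl11, Mrpl12, Mrpl24, Mrpl33, Mrpl41, Mrpl55, Mrpl57, Mrps6, Mrps16, Mrps18c, Mrps24 and Mrps35. Mrps11 was the member whose IL-4 libraries lay above in both (1.32%, all genes 7.01%). It measured 7.27 and 6.60 CPM in wild-type basal and 8.63, 9.24 and 12.2 CPM in wild-type IL-4 libraries. Its knockout levels were 6.49 and 6.44 CPM in basal and 6.60, 7.76 and 6.49 CPM in IL-4 libraries, so that the groups almost touched.

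The interaction, which sets the change after IL-4 in knockout against the same change in wild type, gave 0 members past the threshold, where 2.81% of all genes passed. At an unadjusted p under 0.05, edgeR gave 5 members above and 2 below 0, against 8.18% and 7.13% of all genes, and DESeq2 called 0. The median was 0.10 over the members (large subunit 0.085, small subunit 0.22) and 0.010 over all genes, and 45 of 76 members lay above 0 (all genes 50.6%). With library totals in place of TMM factors, the medians were -0.072 over the members and -0.17 over all genes, so the sign of the members' median rests on the scaling. Mrpl47 had the smallest p, with an interaction of -1.18 ± 0.37 and an adjusted p of 0.112. In wild type its 3 IL-4 libraries lay above both basal libraries, and in knockout they lay below them (21.9 and 20.8 CPM basal against 17.9, 20.0 and 15.5 CPM). Mrps25 followed with 1.35 ± 0.43 and an adjusted p of 0.123. Its knockout levels were 50.1 and 71.5 CPM in basal and 87.3, 69.1 and 85.7 CPM in IL-4 libraries. The remaining members named by p (Mrpl9, Mrpl42, Mrpl22, Mrps30, Mrps15, Mrps14, Mrps18c, Mrpl36, Mrpl35 and Mrps5) had adjusted p of 0.201 to 0.464, with Mrpl22, Mrps14 and Mrpl36 below 0 and the other 7 above. Among markers, 11 of 12 for B cells, 2 of 7 for mast cells, 2 of 4 for neutrophils, 1 of 4 for erythroid cells, 1 of 7 for small peritoneal macrophages, monocytes and dendritic cells and 1 of 11 for large peritoneal macrophages passed below 0, and 3 of 8 for proliferation above 0. Their part in the member levels was not tested.

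Proteins with a bacterial counterpart and mitochondria-specific ones were compared within each subunit. In basal cells the median genotype difference of the small subunit was -0.71 over 12 mitochondria-specific genes and -0.37 over 16 genes of bacterial type. For the large subunit it was -0.21 over 19 and -0.42 over 29 genes, so the order of the classes differed between the subunits. After IL-4 the 4 medians lay between -0.36 and -0.22. For IL-4 in wild type they lay between -0.35 and -0.22, and in knockout between -0.35 and -0.068, with both bacterial-type medians (-0.26 and -0.35) below both mitochondria-specific ones (-0.068 and -0.14).

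Few members varied more than 2-fold between the libraries of a group. The highest library exceeded the lowest more than 2-fold for 3 of 76 members in wild-type basal (3.95%, all genes 14.2%), 2 in knockout basal (2.63%, all genes 11.6%), 9 in wild-type IL-4 (11.8%, all genes 19.4%) and 8 in knockout IL-4 (10.5%, all genes 28.1%). The shares of all genes leave out genes with no count in a library of the group. They were not matched to the members for level, on which such a spread depends. The widest spread was that of Mrpl35, a large subunit protein with a bacterial counterpart. It measured 29.2, 26.8 and 144.5 CPM in knockout IL-4 libraries, 5.39-fold from lowest to highest, against 18.5 to 42.0 CPM in the 7 other libraries. Its genotype difference after IL-4 was 1.21 ± 0.56 (adjusted p = 0.351), and -0.051 (adjusted p = 0.964) without knockout IL-4 replicate 3, so the sign rests on that library. Mrpl21 measured 28.5 and 101 CPM in wild-type basal libraries (3.54-fold), where all other libraries held 19.0 to 36.0 CPM. Mrpl1 measured 45.1 and 14.6 CPM in knockout basal (3.09-fold) and 8.84, 43.5 and 31.9 CPM in knockout IL-4 libraries. Mrps6 measured 7.44, 7.18 and 2.57 CPM in wild-type IL-4 libraries (2.89-fold).

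**Figure D5:**
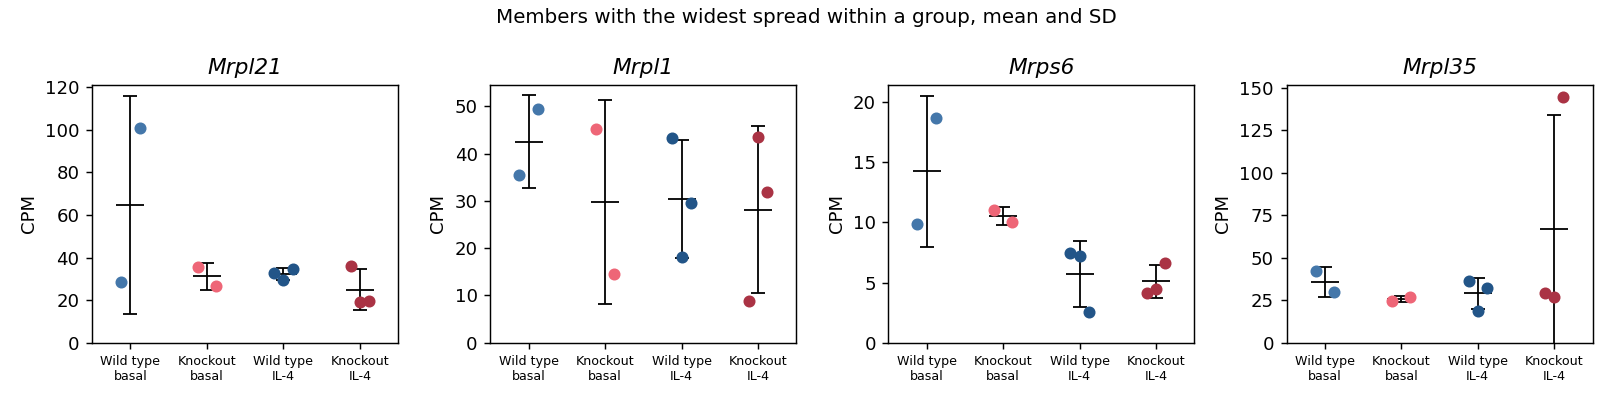
Level in CPM of the member with the widest spread in each group, by library, with group mean and SD (basal n = 2, IL-4 n = 3 per genotype). 1 library stands apart for Mrpl21 (101 CPM in wild-type basal) and Mrpl35 (144.5 CPM in knockout IL-4).

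Other genes of mitochondrial gene expression were read from 6 lists with 80 tested genes. Past the threshold were 0 in the genotype comparison after IL-4 (unadjusted 2 higher and 6 lower, DESeq2 0), 1 lower in the basal genotype comparison, 1 higher and 2 lower after IL-4 in wild type, 2 higher and 3 lower after IL-4 in knockout, and 0 for the interaction (unadjusted 5 above and 4 below 0, DESeq2 3 above). The 5 ribosomal proteins that carry other symbols followed the members in part. Of these, Chchd1, a small subunit protein, fell by 1.09 ± 0.25 after IL-4 in knockout (adjusted p = 0.0148), and its difference in wild type was -0.77 (adjusted p = 0.0796). The median of the 5 genes was -0.47 after IL-4 in wild type and 0.008 in knockout, where 3 of 5 were fitted above 0. For knockout against wild type it was -0.33 in basal cells and -0.095 after IL-4.

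Of 29 tested assembly factors and rRNA modifying enzymes, 1 was called. Mtg1, a GTPase that acts on the large subunit, fell by 1.39 ± 0.37 after IL-4 in knockout (adjusted p = 0.0298). The medians of this list lay between -0.27 and 0.014 over the 4 pairwise comparisons. Of 14 translation factors, 1 was called: Mtif3, the initiation factor that acts on the small subunit, rose by 0.93 ± 0.25 after IL-4 in knockout (adjusted p = 0.0331) and had a basal genotype difference of -0.95 (adjusted p = 0.0600).

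Of 10 genes for mitochondrial transcription and DNA maintenance, Tfam, which packages mitochondrial DNA and activates its transcription, was lower in basal knockout (-1.52 ± 0.38 on the log2 scale, adjusted p = 0.0373). It fell by 1.34 ± 0.34 after IL-4 in wild type (adjusted p = 0.0289), a comparison with the same wild-type basal libraries. Mgme1, a nuclease of mitochondrial DNA, fell by 1.08 ± 0.26 after IL-4 in wild type (adjusted p = 0.0242). The 13 mitochondrially encoded mRNAs, which the mitochondrial ribosome translates, had medians between -0.12 and 0.12 over the 4 pairwise comparisons. Of these, mt-Nd3 fell by 0.97 ± 0.20 (adjusted p = 0.00761) and mt-Co1 rose by 0.90 ± 0.26 (adjusted p = 0.0453) after IL-4 in knockout. Of 9 nuclear regulators, Yy1 rose by 0.93 ± 0.24 after IL-4 in wild type (adjusted p = 0.0313). In that comparison the members' median was -0.16 over 12 with the YY1 core and -0.36 over 55 without it. It was -0.24 with and -0.36 without the ETS and GABP core, and -0.345 with and -0.324 without the NRF1 motif. These differences were not tested.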

How the data were processed

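The deposited values were whole-number read counts per gene and library. Per the submitters' processing notes, the authors used STAR, HTSeq and mm10; versions, annotation and strand setting were not given in the sources used here. Identifiers were matched to GENCODE M21, and 343 of 22165 had no symbol. The table held 0 rows that name no gene.

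From the counts, edgeR 4.0.16 in R 4.3.3 was used with TMM factors, filterByExpr (minimum count 10, minimum total 15) and a robust quasi-likelihood fit of 4 group means over all 10 libraries. This left 11614 genes, 6 residual degrees of freedom and a common biological coefficient of variation of 28.4%. Tests were two-sided, with Benjamini-Hochberg adjustment over all genes tested and a threshold of 0.05. Log2 values below 0 mean lower in knockout or lower after IL-4, ± is the SE after a log2 value and the SD after a mean. The scripts were tested on simulated data. The 10 libraries had 8762403 to 15024073 counts, and groups of 2 or 3 libraries limit the precision.

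The members and all gene lists were chosen with earlier results of these data known, so no p-value is given for the members as a set. In each comparison the text names members past the threshold and then those with the smallest p, up to 12, the 3 highest and 3 lowest per kb, untested members, and from each pathway list up to 3 called genes. Alternatives were DESeq2 1.42.0, library totals, no filter, a replicate block, fits of only the groups compared, leaving out each library, and placement by structure. Chosen after seeing the data were transcript length and sums without 2 of the libraries. The values of those sums are not given here. The targeted gene is not reported here.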

Additional observations from a re-analysis of the deposited data

How the results depend on the processing

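The lower medians of the members kept their sign in the 4 pairwise comparisons under every alternative run. With library totals the basal genotype medians were -0.226 (large), -0.283 (small) and -0.262 (all members), the small subunit median after IL-4 was -0.271 in wild type and -0.295 in knockout, and that of all members in knockout was -0.305. The interaction medians became -0.087, 0.047 and -0.072. Library totals moved the median of all genes to 0.13, -0.105 and -0.166 in the basal genotype, knockout IL-4 and interaction comparisons, and the members' median minus that of all genes stayed at -0.39, -0.20 and 0.094, against -0.40, -0.20 and 0.092 with TMM.

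Calls were less stable. The counts of these alternative fits are given without the share of all genes that each fit called. They therefore cannot tell more calls among members from more calls among all genes. Members called lower were 2 after IL-4 and 3 in basal cells between genotypes, and 7 in wild type and 2 in knockout after IL-4, with DESeq2, which also called 1 higher in wild type. With library totals 1 was called lower and 1 higher in wild type and 2 lower in knockout after IL-4. With no filter the genotype comparisons gave 2 lower and 1 higher after IL-4 and 5 lower in basal cells, IL-4 gave 9 lower in wild type and 1 higher in knockout, and the interaction 2 above 0. Fits of only the groups compared gave 1 lower in basal cells and 0 in knockout after IL-4. Deviations of same-numbered libraries from their group means had correlations of -0.11 to 0.062. In a group of 2 libraries these deviations mirror each other, so the values cannot tell whether same-numbered libraries share a batch. With a replicate block IL-4 calls were 1 lower in wild type and 0 in knockout, and the wild-type small subunit median was -0.433.

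Leaving out each library in turn, the medians of all, large and small subunit members ranged over -0.4 to -0.242, -0.389 to -0.235 and -0.406 to -0.254 between genotypes after IL-4, and over -0.423 to -0.286, -0.384 to -0.287 and -0.575 to -0.276 in basal cells. For IL-4 they ranged over -0.339 to -0.243, -0.318 to -0.185 and -0.45 to -0.331 in wild type, over -0.266 to -0.183, -0.279 to -0.175 and -0.277 to -0.191 in knockout, and over 0.018 to 0.196, -0.047 to 0.16 and 0.018 to 0.314 for the interaction. Lower calls ranged from 0 to 2 in basal cells, 0 to 4 for IL-4 in wild type and 0 to 2 in knockout, and calls above 0 for the interaction from 0 to 1. Where 1 library remained in a group, its variation was taken to equal that of the rest.

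Of 888 alternatives for 60 named values, 825 kept their direction and side of the threshold, 34 came to pass it, 28 ceased to pass it, and the sign of 1 turned, the Mrpl35 genotype difference after IL-4, at -0.051 without knockout IL-4 replicate 3 (leaving out each library, -0.051 to 1.586). The cause was not tested for any of these. With 2 to 3 libraries a group, the medians were of the order of the SE of single members, which limits calls of single genes.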
